A study of Bos taurus with 8 samples.

Results

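The genes examined were the myogenic regulatory factors of the MYOD family, *MYF5*, *MYOD1*, *MYOG* and *MYF6*, with the *MEF2* genes *MEF2A*, *MEF2C* and *MEF2D* and the *ID* genes *ID1*, *ID2* and *ID3*. A gene was taken where a probe of the array carried its symbol through the RefSeq accession in the scanner files. This held for 7 of the 10 genes, each with 1 probe so named and spotted 2 times, out of 21475 probes with 7788 named genes in all, and *MEF2C*, *MEF2D* and *ID2* were not analysed here. Only 7793 of 20693 accessions could be matched, so the array may hold further probes of any of the 10 genes. The probes were those of NM_174116 (*MYF5*), NM_001040478 (*MYOD1*), NM_001111325 (*MYOG*), NM_181811 (*MYF6*), NM_001083638 (*MEF2A*), NM_001097568 (*ID1*) and NM_001014950 (*ID3*). No probe, transcript or protein sequence was at hand, so none is printed.

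RNA came from primary muscle cell cultures of semitendinosus muscle of 15-month-old Limousin (LIM) and Hereford (HER) bulls, which are beef breeds, and Holstein Friesian (HF) bulls, a dairy breed used as the reference. The cultures of all 3 breeds were untreated, kept in the same growth medium, and frozen as proliferating cells at 80% confluence. On 4 two-colour arrays LIM cells (Cy5) were hybridised with HF cells (Cy3), and on 4 others HER cells (Cy3) with HF cells (Cy5). Preplating enriched the cultures for myoblasts but left other cells in them. Each comparison had a slide and a dye orientation of its own, so breed, dye and slide cannot be told apart within a comparison. With 4 bulls of each breed, the 8 HF channels held cells of at most 4 HF bulls, so ranges and SD over them are not those of 8 separate animals. Neither the labels nor the methods give which HF bull was on which array.

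Factors of the MYOD family are basic helix-loop-helix proteins that bind DNA as partners of E proteins and switch on muscle genes. MYF5 and MYOD1 commit cells to the muscle lineage and are made by proliferating myoblasts, MYOG drives their entry into differentiation, and MYF6 is made mostly by differentiated muscle. MEF2 proteins do not start the muscle programme alone but bind beside the MYOD factors at many muscle promoters and amplify their action. ID proteins lack a DNA-binding region, occupy E proteins, and so hold back the MYOD factors in dividing cells.

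The values below are log2 ratios of the beef breed over HF, so that 1 stands for a doubling and -1 for a halving of signal. A probe entered the test, made with limma, where 4 or more of the 16 channels showed it well above background, which left 17631 probes, and a gene was called at an adjusted p of at most 0.05. All 7 genes were well above background in all 16 channels, and none of their spots was saturated. Such detection reached 68.8% to 85.2% of all probes in a beef channel and 73.9% to 78.0% in an HF channel. The median ratio of all tested probes was -0.0097 in LIM and -0.055 in HER.

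All 4 genes of the MYOD family gave a higher mean signal in the cells of both beef breeds than in HF cells, by 1.83 to 5.32 times in LIM and 2.17 to 4.19 times in HER, whereas *ID1* was lower by 2.31 and 1.92 times. *MEF2A* and *ID3* lay within 1.37 times of HF in either breed. At the adjusted p, 5 of the 7 genes were called in LIM (*MYF5*, *MYOG*, *MYF6* and *MEF2A* higher, *ID1* lower) and 3 in HER (*MYF5*, *MYOG* and *MYF6*, all higher). Of all probes tested, 35.9% were called in LIM (16.6% higher and 19.3% lower) and 25.4% in HER (10.7% higher and 14.7% lower). For the mean of both comparisons, in which a dye effect common to them cancels (the beef effect), 5 genes were called, the MYOD family higher and *ID1* lower, beside 47.5% of all probes (21.4% higher and 26.2% lower). In bulk RNA, fewer cells of a type and less RNA per cell cannot be told apart.

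**Figure D1:**
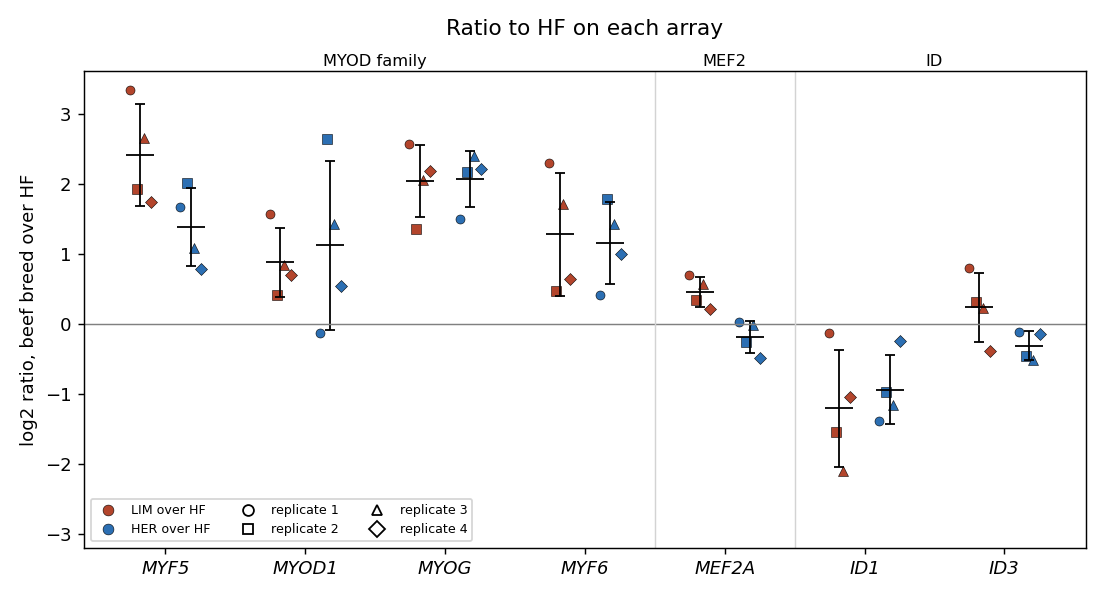
Log2 ratio of beef breed over HF (vertical axis) of the 7 genes (horizontal axis) on each array, with LIM arrays in red and HER arrays in blue and a symbol for each replicate number; the long bars are means and the whiskers SD over 4 arrays. *MYF5*, *MYOG* and *MYF6* lie above 0 on all 8 arrays and *ID1* below 0 on all 8, with *MYOD1* above 0 on 7.

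*MYOG*, the factor of differentiation entry, was higher by more than 1 on every array. Its ratio was 2.57, 1.35, 2.06 and 2.18 on LIM replicates 1 to 4, and 1.49, 2.17, 2.40 and 2.21 on HER replicates 1 to 4. The ranges of the breeds overlapped, with LIM replicate 1 the highest and LIM replicate 2 the lowest of the 8. The means were 2.04 ± 0.51 in LIM (SD, n = 4, 4.11-fold, limma adjusted p = 0.000738) and 2.07 ± 0.40 in HER (SD, n = 4, 4.19-fold, limma adjusted p = 0.00225). The beef effect was 2.05 (95% interval 1.71 to 2.39, limma adjusted p = 0.000122). LIM and HER differed by -0.029 (95% interval -0.71 to 0.65, limma adjusted p = 0.976).

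The signal of *MYOG* in the single channels did not overlap between HF and HER cells. On a log2 scale with the median of each channel at 0, it ran from -0.55 to 0.84 in the 8 HF channels, from 1.14 to 2.65 in the 4 HER channels, and from 0.78 to 3.00 in the 4 LIM channels. The LIM range touched that of HF through LIM replicate 2 alone, at 0.78. Its own array partner, the HF channel of LIM replicate 2, was the lowest of the 8 at -0.55. HER cells were always in Cy3 and LIM cells in Cy5, whereas the HF channels held both dyes. For *MYOG*, *MYF5* and *ID1*, the share of all probes with a like separation of channels, or with the same sign on all 8 arrays, is not given here.

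*MYF5*, a factor of muscle commitment, was higher in the beef breeds on 8 of 8 arrays. The LIM arrays gave 3.34, 1.92, 2.65 and 1.74 and the HER arrays 1.67, 2.00, 1.08 and 0.78 in the order of their numbers. LIM replicate 1 was the highest and HER replicate 4 the lowest, and only HER replicate 2 reached into the LIM range. The mean was 2.41 ± 0.73 in LIM (SD, n = 4, 5.32-fold, limma adjusted p = 0.000883) and 1.38 ± 0.56 in HER (SD, n = 4, 2.61-fold, limma adjusted p = 0.0131). The beef effect was 1.90 (95% interval 1.43 to 2.36, limma adjusted p = 0.000322). For the difference of the breeds, 1.03 (95% interval 0.10 to 1.96), the limma p was 0.0335 and, adjusted, 0.287, so that it was not called.

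Channel levels of *MYF5* were apart between dairy and beef cells. In HF they were -0.68 to 0.97, in HER 1.3 to 2.34 and in LIM 1.85 to 2.62, without overlap of HF with either breed. The LIM and HER levels overlapped. The HER call of *MYF5* was lost without HER replicate 1 (1.29, limma adjusted p = 0.0612) or HER replicate 2 (1.18, limma adjusted p = 0.0623).

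*MYF6*, whose product is tied to differentiated muscle, was higher on all 8 arrays but unevenly. In LIM its ratio was 2.29, 0.46, 1.71 and 0.63, and in HER 0.41, 1.77, 1.42 and 1.00. LIM replicates 1 and 3 were well above LIM replicates 2 and 4. The means of 1.27 ± 0.88 in LIM (SD, n = 4, 2.42-fold, limma adjusted p = 0.0174) and 1.15 ± 0.59 in HER (SD, n = 4, 2.22-fold, limma adjusted p = 0.0352) were called, as was the beef effect of 1.21 (95% interval 0.68 to 1.74, limma adjusted p = 0.00333). LIM and HER differed by 0.12 (95% interval -0.93 to 1.18, limma adjusted p = 0.93).

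The processed signal of *MYF6* was 52.3 to 194 in the HF channels and 140 to 655 in the beef channels. Its 2 spots disagreed on HER replicate 1, where they gave -0.26 and 1.07, a gap of 1.32, against a median gap of 0.37 over the arrays and a largest gap of 0.16 for any other of the 7 genes. The call of *MYF6* was lost in HER without any single HER array (0.94 to 1.40, limma adjusted p = 0.0550 to 0.140), and in LIM without LIM replicate 1 (0.94, limma adjusted p = 0.0633) or LIM replicate 3 (1.13, limma adjusted p = 0.0777). With the replicate number as a block, the HER call of *MYF6* was lost too (limma adjusted p = 0.0716). *MYF5* and *MYF6* are neighbours on 1 chromosome, with 0 genes between them in the RefSeq table of ARS-UCD2.0.

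*MYOD1*, the other commitment factor, had the widest spread of the 7 genes over the HER arrays. The LIM arrays gave 1.57, 0.40, 0.83 and 0.69, and the HER arrays -0.14, 2.64, 1.42 and 0.54. HER replicates 1 and 2 thus held the lowest and the highest value of all 8 arrays. Neither mean was called, at 0.88 ± 0.50 in LIM (SD, n = 4, 1.83-fold, limma adjusted p = 0.117) and 1.12 ± 1.20 in HER (SD, n = 4, 2.17-fold, limma adjusted p = 0.0706). The beef effect of 1.00 was called (95% interval 0.35 to 1.64, limma adjusted p = 0.0193), but not without LIM replicate 1 (0.88, limma adjusted p = 0.0502). Without HER replicate 2, *MYOD1* was called in LIM (0.88, limma adjusted p = 0.0450). The breeds differed by -0.24 (95% interval -1.53 to 1.04, limma adjusted p = 0.885).

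The channel levels of *MYOD1* were spread in the cultures of every breed, HF included. Its level was 5.70 and 5.67 in the HF channels of HER replicate 4 and LIM replicate 4, and 2.94 to 4.05 in the other 6 HF channels. In processed signal these were 20133 and 29429 against 4768 to 10661. The beef levels of the arrays numbered 4 were high as well, at 6.24 in HER and 6.35 in LIM. HER replicates 1 and 2, the extremes of the ratio, had HF levels of 4.05 and 3.72 and beef levels of 3.88 and 6.35. Beef channels spanned 3.32 to 6.35 in LIM and 3.88 to 6.35 in HER, and both ranges overlapped that of HF.

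**Figure D2:**
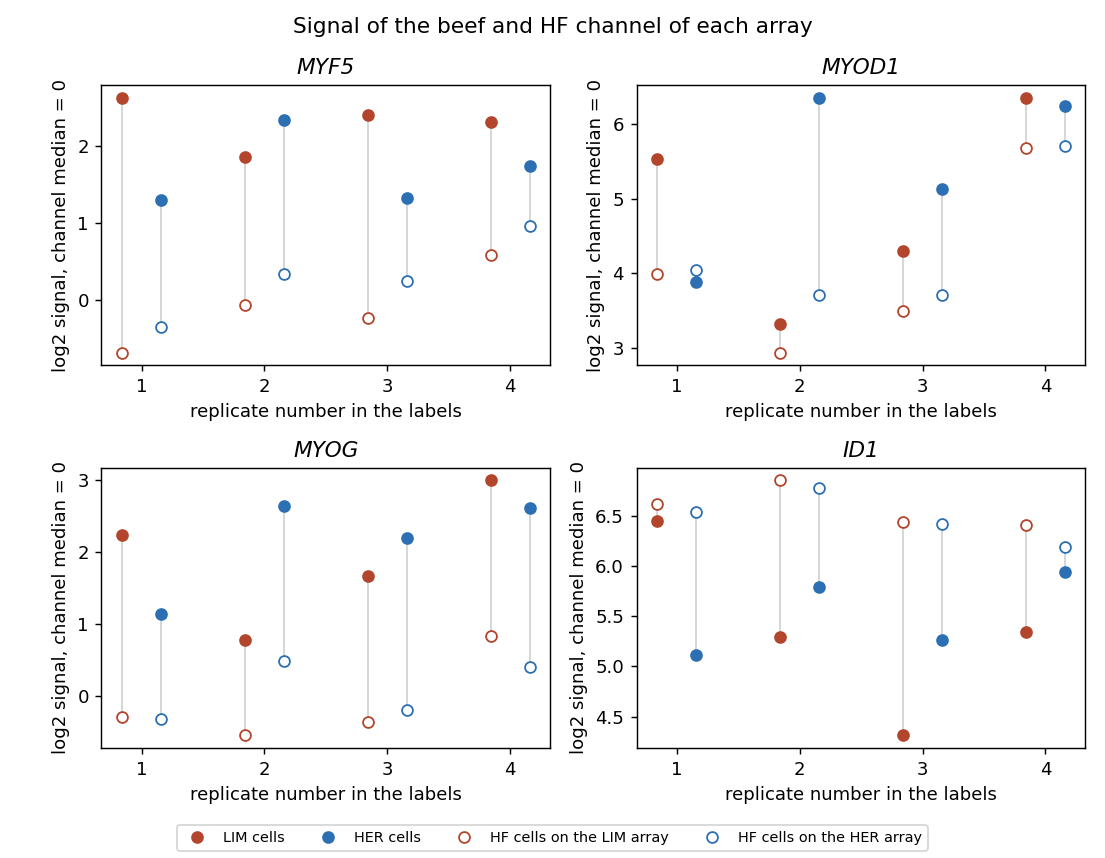
Log2 signal with the channel median at 0 (vertical axis) against the replicate number (horizontal axis) for *MYF5*, *MYOD1*, *MYOG* and *ID1*; filled points are beef cells, open points HF cells, and a line joins the channels of 1 array. The HF level of *MYOD1* is 5.70 and 5.67 on the arrays numbered 4 and at most 4.05 on the others, whereas that of *ID1* stays between 6.19 and 6.85.

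*MEF2A*, the MEF2 member with a probe named here, had a higher mean in LIM, as the MYOD family did, but not in HER. Its ratio was 0.69, 0.35, 0.57 and 0.21 on the LIM arrays and 0.017, -0.26, -0.025 and -0.49 on the HER arrays. All LIM values were above all HER values. The LIM mean of 0.45 ± 0.22 was called (SD, n = 4, 1.37-fold, limma adjusted p = 0.0256), and the HER mean of -0.19 ± 0.23 was not (SD, n = 4, limma adjusted p = 0.299). With limma, the beef effect was 0.13 (95% interval -0.076 to 0.34, adjusted p = 0.259), so that a doubling on average lay outside the interval.

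The breeds differed in *MEF2A* by 0.64 (95% interval 0.23 to 1.06), with a limma p of 0.00698 and an adjusted p of 0.172. Red was the brighter channel on 7 of the 8 arrays, and red held LIM cells on the LIM arrays and HF cells on the HER arrays, so that dye and breed cannot be told apart here. The LIM call of *MEF2A* was lost without LIM replicate 1 (0.37, limma adjusted p = 0.0977), LIM replicate 2 (0.49, limma adjusted p = 0.0574) or LIM replicate 3 (0.41, limma adjusted p = 0.102). On every array *MYOG* exceeded *MEF2A*, by 1.00 to 2.70 in log2 ratio.

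*ID1*, which codes for an inhibitor of E proteins, was the member lower in the beef breeds, on 8 of 8 arrays. The LIM arrays gave -0.14, -1.55, -2.10 and -1.05, and the HER arrays -1.39, -0.97, -1.16 and -0.25. LIM replicate 1 and HER replicate 4 were closest to 0, and the others near or below -1. The LIM mean was -1.21 ± 0.84 (SD, n = 4, 2.31-fold lower, limma adjusted p = 0.0158), and the HER mean of -0.94 ± 0.49 just missed the threshold (SD, n = 4, 1.92-fold lower, limma adjusted p = 0.0514). The beef effect of -1.08 was called (95% interval -1.56 to -0.59, 2.11-fold lower, limma adjusted p = 0.00405). LIM and HER differed by -0.26 (95% interval -1.24 to 0.71, limma adjusted p = 0.827).

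The level of *ID1* was even among HF cells and uneven among beef cells. It was 6.19 to 6.85 in the 8 HF channels (SD 0.21), 5.12 to 5.94 in the HER channels (SD 0.40) and 4.32 to 6.44 in the LIM channels (SD 0.87). No HER channel reached the HF range, and LIM replicate 1 alone of the LIM channels did. Without LIM replicate 2 (-1.09, limma adjusted p = 0.0631) or LIM replicate 3 (-0.91, limma adjusted p = 0.0701) the LIM call was lost. In HER, *ID1* passed without HER replicate 4 (-1.17, limma adjusted p = 0.0458), and also without LIM replicate 1 or 3, which enter the shared spread.

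*ID3*, of the same family, did not follow *ID1*. Its ratio was 0.79, 0.31, 0.23 and -0.40 on the LIM arrays, and -0.12, -0.47, -0.52 and -0.15 on the HER arrays. Neither the LIM mean of 0.23 ± 0.49 (SD, n = 4, limma adjusted p = 0.339) nor the HER mean of -0.32 ± 0.21 (SD, n = 4, limma adjusted p = 0.22) was called. The beef effect was -0.042 (95% interval -0.33 to 0.25, limma adjusted p = 0.804), and the difference of the breeds was 0.55 (95% interval -0.032 to 1.13, limma adjusted p = 0.364). As for *MEF2A*, red was the brighter channel on 7 of the 8 arrays. LIM passed without LIM replicate 4 (0.44, limma adjusted p = 0.0485).

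Set side by side within each array, the log2 ratio of *MYOG* exceeded that of *ID1* by 2.46 to 4.16 on the 8 arrays, and that of *ID3* by 1.04 to 2.92. The median of the 4 MYOD family genes was 0.89 to 2.43 per array, above 0 on all, and that of *ID1* and *ID3* was -0.94 to 0.33, above 0 on LIM replicate 1 alone. All 7 genes had their highest LIM ratio on LIM replicate 1, *ID1* included. On HER replicate 1, *MYOD1*, *MYOG*, *MYF6* and *ID1* had their lowest HER ratio. These values describe the arrays, and no test was made on the gaps between genes.

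No member was called between LIM and HER, where 0.233% of all probes were. Under the looser rule of the study's methods (limma p up to 0.05 before adjustment, fold change 1.3 or more), *MYF5* and *MEF2A* passed between LIM and HER, beside 14.1% of all probes. By that rule 5 members passed in LIM (41.6% of all probes) and 5 in HER (34.8%). Both comparisons use HF cells, so their values are not independent of each other.

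**Figure D3:**
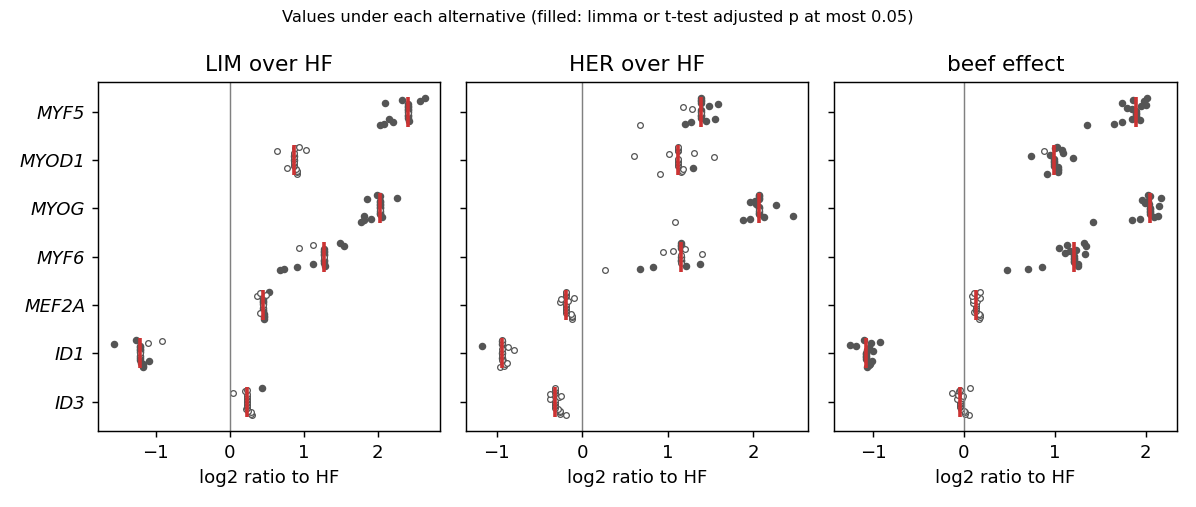
Log2 ratio to HF (horizontal axis) of each gene in LIM, in HER and as the beef effect; each point is the value under 1 alternative treatment of the data, filled where the adjusted p is at most 0.05, and the red bar is the value given in the text. The MYOD family stays above 0 and *ID1* below 0 in every panel, while calls of *MYF6*, *MEF2A* and *ID1* are among those gained or lost within a panel.

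In the HER comparison, the calls of *MYF5*, *MYOG* and *MYF6* were also lost when the ratios were rebuilt from the spot intensities with normexp and loess (0.67, 1.08 and 0.26, limma adjusted p = 0.280, 0.176 and 0.492), a setting in which 0 probes of the array were called in HER. The beef effect of *MYF6* was then 0.47 (limma adjusted p = 0.0336). After a one-sample version of the methods' t-test with Benjamini-Hochberg adjustment, no member was called in either breed.

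Targets of the MYOD factors and MEF2, the sarcomere, receptor and adhesion genes that these proteins switch on, were higher in both beef breeds with few exceptions. Of 45 genes in a list of such targets, 27 had a probe and 25 were tested, and 22 of these were higher in LIM, 19 in HER and 22 in the beef effect, with none lower. The shares of all probes called higher were 16.6%, 10.7% and 21.4%. The list's median was 2.09 in LIM, 1.81 in HER and 1.93 in the beef effect, where the median of all probes was -0.036. Over the 22 targets well above background in all 16 channels, 20 were higher in the beef effect and the median was 1.80.

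Among the targets, the beef effect of the embryonic myosin *MYH3* was 4.18 (limma adjusted p = 4.91e-05), the cardiac actin *ACTC1*, made early in skeletal myogenesis, 3.33 (limma adjusted p = 4.93e-05), and the slow troponin C gene *TNNC1* 2.76 (limma adjusted p = 4.93e-05). Each was higher on 8 of 8 arrays. The targets not called in the beef effect were *NCAM1*, a cell adhesion gene, at 0.58, *MYBPH*, a myosin binding protein gene, at 0.98, and *SMYD1*, which codes for a methyltransferase of sarcomere assembly, at -0.0070. *MYBPH*, well above background in 5 of 16 channels, was called in LIM (1.66, limma adjusted p = 0.0377) and not in HER (0.31, limma adjusted p = 0.685). *CKM*, the muscle creatine kinase gene, was well above background in 3 of 16 channels and *MYBPC1* in 0, so neither was tested. Leaving out single arrays gave 19 to 22 targets in LIM, 16 to 21 in HER and 21 to 22 in the beef effect. The methods' t-test after adjustment called 4 targets higher in LIM and 0 in HER. Normexp with loess called 0 in HER, where it called 0 probes at all. In the beef effect the alternative treatments gave 20 to 23 targets.

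Direct partners and rivals of the MYOD factors did not move together. Of the 3 E protein genes *TCF3* alone had a named probe, and its beef effect was 0.051 (limma adjusted p = 0.749). Among 17 listed inhibitors of the MYOD factors other than those above, 6 were tested, with 2 lower and 1 higher in the beef effect and a median of -0.20, where 26.2% of all probes were lower and 21.4% higher. *HAND1*, a helix-loop-helix factor of mesoderm, was lower, at -1.17 (limma adjusted p = 0.000448) and *HES1*, a Notch target, lower at -0.67 (limma adjusted p = 0.00257), though the HER mean of *HES1* was not called (-0.31, limma adjusted p = 0.201). *HEYL*, likewise a Notch target, was higher by 1.71 (limma adjusted p = 0.0155), with 2.70 in LIM (limma adjusted p = 0.0135) and 0.72, not called, in HER (limma adjusted p = 0.437). Without LIM replicate 4, 2 of the inhibitors were higher in place of 1.

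Of 21 listed partners and regulators of MEF2, 7 were tested, with 2 lower and 1 higher in the beef effect and a median of -0.083, beside the same 26.2% and 21.4% of all probes. *PPP3CA*, which codes for the catalytic part of calcineurin, a phosphatase that activates MEF2, was lower on 8 of 8 arrays, at -0.78 (limma adjusted p = 0.000288). *MAPK7*, a kinase that phosphorylates MEF2, was lower, at -0.34 (limma adjusted p = 0.00431), but not called in HER (-0.19, limma adjusted p = 0.172). *MEF2B*, the remaining gene of the MEF2 family, was higher by 0.36 (limma adjusted p = 0.0131), but not called in HER (0.24, limma adjusted p = 0.212), and its beef effect was not called with 1 value per replicate number (limma adjusted p = 0.0564).

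Among developmental factors of muscle, not all of which act before the MYOD family, 5 were lower in the beef effect, whereas LIM and HER alone had 2 each. Of 17 listed, 8 were tested, with 5 lower and 1 higher in the beef effect and a median of -0.52, where 26.2% of all probes were lower and 21.4% higher. *PITX3*, a homeobox factor made in muscle, was lower, at -1.67 (limma adjusted p = 0.00101), *TCF21*, a factor of connective tissue and facial muscle precursors, lower at -1.13 (limma adjusted p = 0.00279), and *LBX1*, a factor of migrating precursors, lower at -0.63 (limma adjusted p = 0.00333). *PITX3* and *LBX1* were called in LIM (-2.33 and -0.83, limma adjusted p = 0.00188 and 0.00667) and not in HER (-1.01 and -0.42, limma adjusted p = 0.0648 and 0.0985). *TCF21* was called in HER (-1.69, limma adjusted p = 0.00739) and not in LIM (-0.57, limma adjusted p = 0.159), and its beef effect was -0.27 and not called under normexp with loess (limma adjusted p = 0.0954). *DMRT2*, which acts before *MYF5* in the embryo, was higher by 0.48 (limma adjusted p = 0.0143), with 0.90 in HER (limma adjusted p = 0.0115) and 0.065, not called, in LIM (limma adjusted p = 0.800). Without HER replicate 2 or HER replicate 3, 3 of these genes were lower in place of 5. Over the alternative treatments of the data, 2 to 5 were lower and 0 to 1 higher in the beef effect. The call of *DMRT2*, the 1 gene higher, was thus not held under all of them. *PAX7*, the satellite cell factor, had no probe named here.

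BMP signals induce the *ID* genes, and of 22 listed genes of that pathway 8 were tested, with 2 lower and none higher in the beef effect, beside 26.2% and 21.4% of all probes, and a median of -0.058. The receptor gene *BMPR1B* was lower on 8 of 8 arrays, at -0.97 (limma adjusted p = 0.0008). *SMAD9*, which codes for a signal carrier of the pathway, was lower, at -0.66 (limma adjusted p = 0.0484), was called in neither breed alone, and lost its call without any single array other than LIM replicate 1. The ligand gene *BMP4* was at 0.79 and not called (limma adjusted p = 0.0684), but passed without LIM replicate 1 (0.95, limma adjusted p = 0.0487).

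Of 14 genes of the cell cycle and its exit, 7 were tested, with 2 higher and 1 lower in the beef effect, beside 21.4% and 26.2% of all probes, and a median of -0.15. *CCND3*, a cyclin kept during muscle differentiation, was higher by 0.73 (limma adjusted p = 0.00162) and *RB1*, the retinoblastoma gene, by 0.62 (limma adjusted p = 0.00503), each on 8 of 8 arrays. *CDK4*, a kinase that starts the cycle, was lower, at -0.21 (limma adjusted p = 0.0282), but at -0.050 in HER (limma adjusted p = 0.721), and the beef effect was not called without HER replicate 1, 2 or 3 or without LIM replicate 1, 2 or 3. *HES1*, *HEYL*, *MAPK7*, *MEF2B*, *PITX3*, *LBX1*, *TCF21*, *DMRT2* and *CDK4* passed in 1 breed alone. LIM minus HER was called by limma for none of them (limma adjusted p = 0.195 to 0.585), although *HES1*, *PITX3*, *TCF21*, *DMRT2* and *CDK4* were at an unadjusted p under 0.05.

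**Figure D4:**
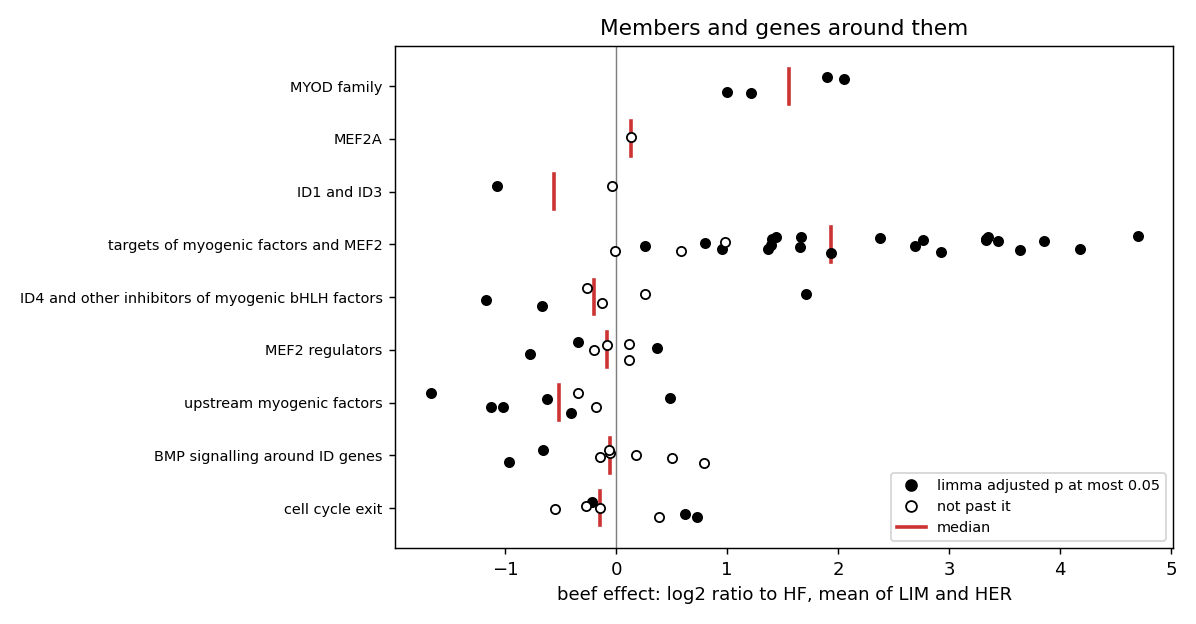
Beef effect (horizontal axis, log2 ratio to HF as the mean of LIM and HER) of the members and of the genes of 6 lists (vertical axis); each point is 1 gene, filled where the limma adjusted p is at most 0.05, and red bars are medians. Targets of the myogenic factors lie mostly above 1, as does the median of the MYOD family, and the medians of the 5 other lists lie between -0.52 and -0.058.

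Markers of myoblasts and of some other cells of muscle also differed between beef and HF cells. Of 5 tested myoblast markers, 4 were higher in the beef effect, namely *DES* (2.69), *CDH15* (2.38), *ITGA7* (1.52) and *CHRNA1* (1.40), and *NCAM1* was not called. For these and the marker counts below, 21.4% of all probes were higher and 26.2% lower in the beef effect. Of these, *DES*, *CDH15*, *CHRNA1* and *NCAM1* are also in the list of targets. The summed signal of the myoblast markers was above HF by 1.20 to 2.21 on the LIM arrays and 0.72 to 1.99 on the HER arrays. All 5 were well above background in all 16 channels.

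Fibroblast markers were also mostly higher. Of 10 tested, 7 were higher and 2 lower in the beef effect, beside 21.4% and 26.2% of all probes. Collagen gene *COL1A1* was at 2.22 and *LUM*, a matrix proteoglycan gene, at 1.35, but *PDGFRA*, a receptor of fibroblast and fat precursors, at -1.42 and *TCF21* at -1.13. Their summed signal was above HF by 0.68 to 3.43 on the LIM arrays and 0.85 to 2.85 on the HER arrays. Of 5 tested smooth muscle and pericyte markers, 3 were higher, *MYH11* (1.56), *ACTA2* (1.21) and *MCAM* (1.56). *MCAM* was called on leaving out HER replicate 3 or LIM replicate 1 but on leaving out no other array. Over the alternative treatments the beef effect of *MYH11* went down to 0.38 and that of *ACTA2* to 1.01, with both called wherever tested. The summed ratio of the smooth muscle and pericyte markers was -0.31 to 2.14 in LIM and 0.81 to 1.50 in HER.

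Adipocyte, endothelial and leukocyte markers gave no common direction. Among 5 adipocyte markers, *PLIN1* (1.05) and *LPL* (0.96) were higher and *CEBPA* (-1.38) and *PPARG* (-0.58) lower, beside 21.4% and 26.2% of all probes. The summed ratio was -2.73 to -1.23 in LIM and -1.35 to -0.46 in HER. Only *PLIN1* and *CEBPA* were called whichever array was left out. *PLIN1* was well above background in 12 of 16 channels and *LPL* in 13. Over the alternative treatments their beef effects went down to 0.18 and 0.20. Of the 3 adipocyte markers well above background in all 16 channels, 0 were higher and 2 lower. No endothelial marker of 3 was called by limma, also none at an unadjusted p under 0.05, with summed ratios from -2.66 to 3.14. Without HER replicate 3, the vessel receptor genes *TEK* (1.82, limma adjusted p = 0.0450) and *KDR* (1.54, limma adjusted p = 0.0475) passed. Of 3 leukocyte markers with a probe, *CD68* (0.81) was higher and *AIF1* was well above background in 2 of 16 channels, and the summed ratios were -0.54 to 0.92. *CD68* was well above background in 13 of 16 channels, and its beef effect went down to 0.18 over the alternative treatments. The part of these cell types in the ratios of the MYOD, MEF2 and ID genes was not tested.

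For the gene of each family with the largest beef effect, the most similar patterns over the 8 arrays were sought among 6808 named genes. *MYOG* ran closest with *PRR5* (Pearson r = 0.933), *TNNT2*, the cardiac troponin T gene (0.927), and *IL17B* (0.919). *TNNT2* was itself higher, by 3.57 in LIM and 3.70 in HER, whereas *PRR5* was at -0.23 and -0.10. *MEF2A* ran closest with *RPLP0* (0.978), *C4A* (0.968) and *RPS9* (0.957), and *RPLP0* and *RPS9* code for ribosomal proteins. *ID1* ran closest with *MLF2* (0.925), *ZNF713* (0.917) and *PIGL* (0.915). The 8 points share HF cells, slides and dyes, and a similar pattern over them is a description only.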

How the data were processed

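The authors deposited, for each of 8 two-colour arrays, the output of Agilent Feature Extraction 10.7.3.1, with red and green intensity, background and flags per spot and the log10 ratio of red to green signal, background-subtracted and dye-normalized by that software. A deposited table of all arrays holds that log10 ratio again (largest difference 0). The ratio was turned to log2 of beef breed over HF, spots of 1 probe were averaged, and control and outlier-flagged spots were left out. A probe was tested where 50% or more of its spots stood well above background, in 4 or more of 16 channels. On each array, 8.54% to 16.5% of the spots listed a ratio of exactly 0.

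All 8 arrays were fitted together in limma 3.58.1 (lmFit, eBayes) under R 4.3.3, with a mean per comparison, the beef effect (the mean of both comparisons, which equals the fit with a dye term) and the difference LIM minus HER. P-values were adjusted by Benjamini-Hochberg over 17631 probes. They measure the spread between arrays, with cultures of 4 bulls per breed, and 4 arrays per comparison limit the precision. The fit takes the 8 ratios as independent, although their HF channels held cells of at most 4 HF bulls. The p-values of the beef effect can therefore be too small and its intervals too narrow. The fit was tested on simulated data with known changes.

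Of 20693 accessions, 7793 matched the RefSeq table of ARS-UCD2.0, which named 8297 probes of 7788 genes; coordinates are left out because the array design names an older build. For genes with more than 1 probe, lists use the brightest. The members, gene lists and tests were chosen with earlier results of these data known. Named were all members, at most 3 genes per list with the smallest p of the beef effect with those a sentence needed, and the 3 genes most like the leading member of each family. Channel levels are log2 processed signal minus the channel median. Alternatives covered background and normalization, filters, the call rule, the test, a replicate block and leaving out each array.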

Additional observations from a re-analysis of the deposited data

How the results depend on the processing

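Leaving out each array in turn gave 3796 to 7272 called probes in LIM (6329 with all arrays), 1527 to 5979 in HER (4473), 6837 to 9537 in the beef effect (8383) and 1 to 14 in LIM minus HER (41). Among the 7 members it gave 2 to 6 calls in LIM, 1 to 4 in HER, 4 to 5 in the beef effect and 0 in LIM minus HER. Normexp with loess called 0 probes and 0 members in HER. With outlying local backgrounds replaced by the array median, *MYF5*, *MYOG* and *MYF6* were called in HER. The methods' t-test after adjustment left 1077 probes and 0 members in LIM and 2 probes and 0 members in HER. Ratios centred and scaled to 1 spread called 5 members in HER. The unadjusted rule called 5 members in HER, and 2482 probes with 2 members in LIM minus HER. Each comparison fitted alone called 3 members in LIM, with *MYOD1* gained and *MYF6*, *MEF2A* and *ID1* lost. Scaling also ended the LIM call of *MEF2A*, and testing probes of any brightness the HER call of *MYF6*. *ID1* passed in HER for scaled ratios, in the comparison fitted alone and over probes well above background in all 16 channels. The count of LIM minus HER was 0 under normexp with loess, 1 with outlying backgrounds replaced, 1 with no background subtracted, 6 for scaled ratios, 76 with no filter on dim probes and 0 over probes well above background in all 16 channels. The causes were not tested.

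Signs that turned belonged to differences that were not called. The beef effect of *ID3* became 0.057 under normexp with loess, 0.017 with outlying backgrounds replaced, 0.016 with no background subtracted and 0.063 without LIM replicate 4 (-0.13 to 0.063 over the arrays left out). In LIM minus HER, *MYOD1* became 0.0013 under normexp with loess and 0.27 without HER replicate 2 (-0.66 to 0.27). *MYOG* became 0.69 under normexp with loess, and 0.0049, 0.082, 0.018 and 0.20 without HER replicates 2, 3 and 4 and LIM replicate 2 (-0.22 to 0.20). *MYF6* became -0.25 for scaled ratios, and -0.12, -0.22 and -0.021 without HER replicate 1, LIM replicate 1 and LIM replicate 3 (-0.22 to 0.40). *ID1* became 0.034 without LIM replicate 3 (-0.62 to 0.034). Of each list and marker set, at most the 3 genes with the smallest p of the beef effect were followed singly through the settings. Of these, 30 were called in the beef effect, 23 of them under every setting, and none of the 30 turned sign. *DMRT2*, *CHRNA1*, *PPARG* and *TNNT2*, also called, were not among the genes followed. *TCF3*, not called, turned to -0.068 without LIM replicate 4.

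The labels number the arrays 1 to 4 in both comparisons, without saying that a number marks a shared animal. Deviations of same-numbered ratios correlated at -0.236, 0.129, 0.304 and 0.540 over 17631 probes, and those of the HF channels at 0.558 to 0.780 against -0.355 to 0.0168 for different numbers. With the number as a replicate block, 6469 probes and 5 members were called in LIM, 4308 and 2 in HER, 8577 and 5 in the beef effect, and 0 and 0 in LIM minus HER. *MYF6* in HER was the member call lost (limma adjusted p = 0.0716). With 1 value per replicate number, a setting chosen after seeing the data, 6188 probes and the same 5 members were called in the beef effect, and 0 probes in LIM minus HER. The limma adjusted p of the beef effect was then 0.00266 for *MYOG*, 0.00370 for *MYF5*, 0.00440 for *MYF6*, 0.0122 for *MYOD1* and 0.0122 for *ID1*. All but that of *MYOD1* were larger than in the main fit.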

Other observations

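The HF level of *MYOD1* differed by at most 0.78 on the log2 scale between the arrays of 1 replicate number, while the means of the 4 numbers spanned 2.36. For *MYF5* these values were 0.47 and 1.29, for *ID1* 0.21 and 0.52, and for *MYOG* 1.04, on the arrays numbered 2, and 0.93.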
